A study of Homo sapiens with 9 samples.

Results

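The genes described here encode the core of the NF-kB pathway, measured here in the Hodgkin lymphoma cell line L-1236. They are the subunit genes REL, NFKB1, RELA, NFKB2 and RELB, the inhibitor genes NFKBIA, NFKBIE and NFKBIZ, and the kinase genes IKBKB and MAP3K14. Each was found by its symbol in the annotation of the Clariom S array, and each had 1 transcript cluster, the array's unit for a gene, so 10 of 10 were measured among 17687 named genes. There were 9 arrays in 3 groups of 3. Clone g2_1 carried a lentiviral Cas9 vector with a guide to the second LTA exon (genotype lentiCRIPSPR_v2-LTA_g2, spelled as in the labels), while in clone g3_4 the guide in the same vector was to the fourth exon (lentiCRIPSPR_v2-LTA_g3). The control cells carried the vector (lentiCRIPSPR_v2) and are labelled wild type. The LTA product, lymphotoxin alpha, is a cytokine related to TNF. Each knockout group is 1 single-cell clone, grown in L-1236 conditioned medium and then for 72 h in normal medium. A culture time of 72 h is also given for the control cells. Conditioned medium is not stated for the control cells, nor is it stated that they were a clone. Separate cultures for the arrays within a group are not stated either, so p-values measure only the spread between these arrays, which may be technical.

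NF-kB proteins are transcription factors that bind DNA as pairs of subunits. In resting cells inhibitors of the NFKBIA type hold them in the cytoplasm. Receptors of the TNF family start a canonical branch, in which a kinase complex with the IKBKB product marks the inhibitor for destruction and frees pairs such as those of the NFKB1, RELA and REL products. They also start an alternative branch, in which the kinase encoded by MAP3K14 drives processing of the NFKB2 product, the partner of RELB. Several of these genes are themselves NF-kB targets, so the pathway feeds back on itself, and lasting NF-kB activity is a known feature of the malignant cells of Hodgkin lymphoma, in which the REL region is often gained.

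Sequences around the start sites are shown for the genes in which the motif bound by NF-kB was matched, whether their signals were lower or higher in the clones. The windows come from RefSeq, build GRCh38.p14, and run from 250 bases before to 50 bases after an annotated start. They were found for 7 of the 10 genes, and were searched on both strands for the kB consensus, the 10-base motif that NF-kB pairs bind. Capitals mark the stretches that matched.
REL, chr2:60881324-60881623, plus strand: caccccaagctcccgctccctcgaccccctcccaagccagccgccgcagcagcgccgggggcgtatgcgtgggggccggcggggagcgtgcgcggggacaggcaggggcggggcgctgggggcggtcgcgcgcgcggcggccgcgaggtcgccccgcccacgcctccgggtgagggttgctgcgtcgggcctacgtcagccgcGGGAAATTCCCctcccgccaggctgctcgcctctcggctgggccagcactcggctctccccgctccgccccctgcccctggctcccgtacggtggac
NFKB1, chr4:102501109-102501408, plus strand: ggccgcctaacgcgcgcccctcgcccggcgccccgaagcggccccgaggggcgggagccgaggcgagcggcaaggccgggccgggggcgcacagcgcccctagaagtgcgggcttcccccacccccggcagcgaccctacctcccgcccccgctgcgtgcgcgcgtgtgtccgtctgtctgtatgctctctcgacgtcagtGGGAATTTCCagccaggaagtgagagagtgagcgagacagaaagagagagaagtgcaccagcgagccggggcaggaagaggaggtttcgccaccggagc
NFKBIA, chr14:35404700-35404999, minus strand: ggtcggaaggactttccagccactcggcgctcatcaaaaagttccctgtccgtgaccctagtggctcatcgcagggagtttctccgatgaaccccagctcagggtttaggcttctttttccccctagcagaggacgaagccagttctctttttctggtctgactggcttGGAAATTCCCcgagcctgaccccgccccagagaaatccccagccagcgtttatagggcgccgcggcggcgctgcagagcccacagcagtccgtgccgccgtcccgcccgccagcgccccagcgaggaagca
NFKB2, chr10:102394328-102394627, plus strand: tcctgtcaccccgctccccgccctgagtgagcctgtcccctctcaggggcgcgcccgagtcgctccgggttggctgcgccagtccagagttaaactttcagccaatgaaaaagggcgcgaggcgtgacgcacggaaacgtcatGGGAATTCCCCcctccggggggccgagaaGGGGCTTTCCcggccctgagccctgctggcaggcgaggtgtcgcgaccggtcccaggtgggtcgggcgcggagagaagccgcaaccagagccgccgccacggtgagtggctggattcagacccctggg
NFKBIZ, chr3:101827740-101828039, plus strand: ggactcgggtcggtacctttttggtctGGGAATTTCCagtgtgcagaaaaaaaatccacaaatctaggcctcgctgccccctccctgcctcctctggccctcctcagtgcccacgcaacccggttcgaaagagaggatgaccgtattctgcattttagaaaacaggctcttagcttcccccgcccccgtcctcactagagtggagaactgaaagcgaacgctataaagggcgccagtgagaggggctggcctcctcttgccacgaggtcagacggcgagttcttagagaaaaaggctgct
A match was present in a window of 5 of the 7 genes, against 1937 of 27305 genes in the table (7.09%), and in 7 of 12 windows of these genes, against 5.91% of all 35116 windows. The stretch in REL began 47 bases before the start and matched on both strands, in NFKB1 49 bases before it and in NFKBIA 81 bases before it. NFKB2 had stretches 107 and 78 bases before the start shown, with 4 matches over both strands, and another of its 3 windows also matched. NFKBIZ had a stretch 223 bases before the start shown, and its other window had a stretch 239 bases before its own start, matched on both strands. The windows of RELA and MAP3K14 held none. These are matches of letters, and binding was not measured.

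The values are log2 signals as the authors deposited them, so a difference of 1 is a factor of 2 in signal, and values of different genes cannot be ranked against each other. Over all tested transcript clusters the first quartile was 4.64, the median 6.21 and the third quartile 8.60. All 10 genes had a mean over all arrays above that median. LTA had log2 signals of 7.97, 7.53 and 7.11 in g2_1 and 6.94, 7.25 and 6.61 in g3_4, against 11.58, 11.07 and 11.08 in control cells. The targeted gene was thus lower on every knockout array than on every control array. All 6 markers of Hodgkin cells that were looked up had control means above the median of the arrays. The summed log2 signal of these markers was 56.06 to 57.85 in the clones and 55.99 to 58.46 in control cells. The sum joins changes in opposite directions. TNFRSF8 was the 1 that passed the test in both clones, with a log2 fold change of 0.745 in the clones averaged. CCL17 was lower on every knockout array than on every control array. IRF4 was higher on all of them, at 11.94 to 12.05 against 11.76 to 11.92 in control cells. TRAF1 had means of 9.58 in g2_1 and 9.06 in g3_4, against 8.62 in control cells, with overlapping arrays. Of 3 T cell markers 0 lay above that median in control cells, and their sums were 12.95 to 13.40 on knockout and 13.44 to 13.64 on control arrays. Of 3 B cell markers found, PAX5 passed the test in both clones, with a log2 fold change of -0.81 in the clones averaged, and the sums were 17.22 to 17.72 on knockout and 18.41 to 18.84 on control arrays. The summed signals of 3 monocyte markers (16.17 to 17.36 on knockout and 16.68 to 17.50 on control arrays) and of 3 fibroblast markers (19.54 to 20.68 on knockout and 19.30 to 19.75 on control arrays) overlapped between the groups, and 1 and 2 of these markers lay above the median in control cells. The part of these markers in the results below was not tested.

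Against control cells, 4 of the 10 genes were called in both clones with the same sign. REL, NFKB1 and NFKBIA fell and IKBKB rose. A gene is called here at a Benjamini-Hochberg adjusted p under 0.05 in limma, adjusted over all 20893 transcript clusters. Of these transcript clusters, 11.4% were called the same way in both clones, 6.97% lower and 4.48% higher. In g2_1, 5 genes were called, 4 lower and 1 higher, against 14.3% of all transcript clusters (8.06% lower and 6.19% higher). In g3_4, 5 were called, 3 lower and 2 higher, against 14.3% (8.16% lower and 6.12% higher). With the clones averaged 7 were called, 4 lower and 3 higher, against 18.0% (9.83% lower and 8.13% higher). The signals of the 6 knockout arrays lay wholly on one side of the 3 control arrays for 7 genes, below them for 4 and above them for 3, against 20.4% of all transcript clusters (10.6% below and 9.70% above). The median log2 fold change of the 10 genes with the clones averaged was -0.36, against 0.04 for all transcript clusters. Both comparisons use the same control arrays, so the clones are not independent of each other. The count called in both clones was 2 without g2_1 array 2, g2_1 array 3, g3_4 array 2 or control array 1, and also 2 without the arrays numbered 2 or those numbered 3. It was 0 in a test with unequal variances, which called 31 transcript clusters in g2_1 and 65 in g3_4 over the whole table. In limma with all arrays 2979 were called in g2_1 and 2983 in g3_4. These numbers were 1049 and 1103 without the arrays numbered 2, and 1604 and 1575 without those numbered 3. Without control array 1 they were 3118 and 3148.

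**Figure D1:**
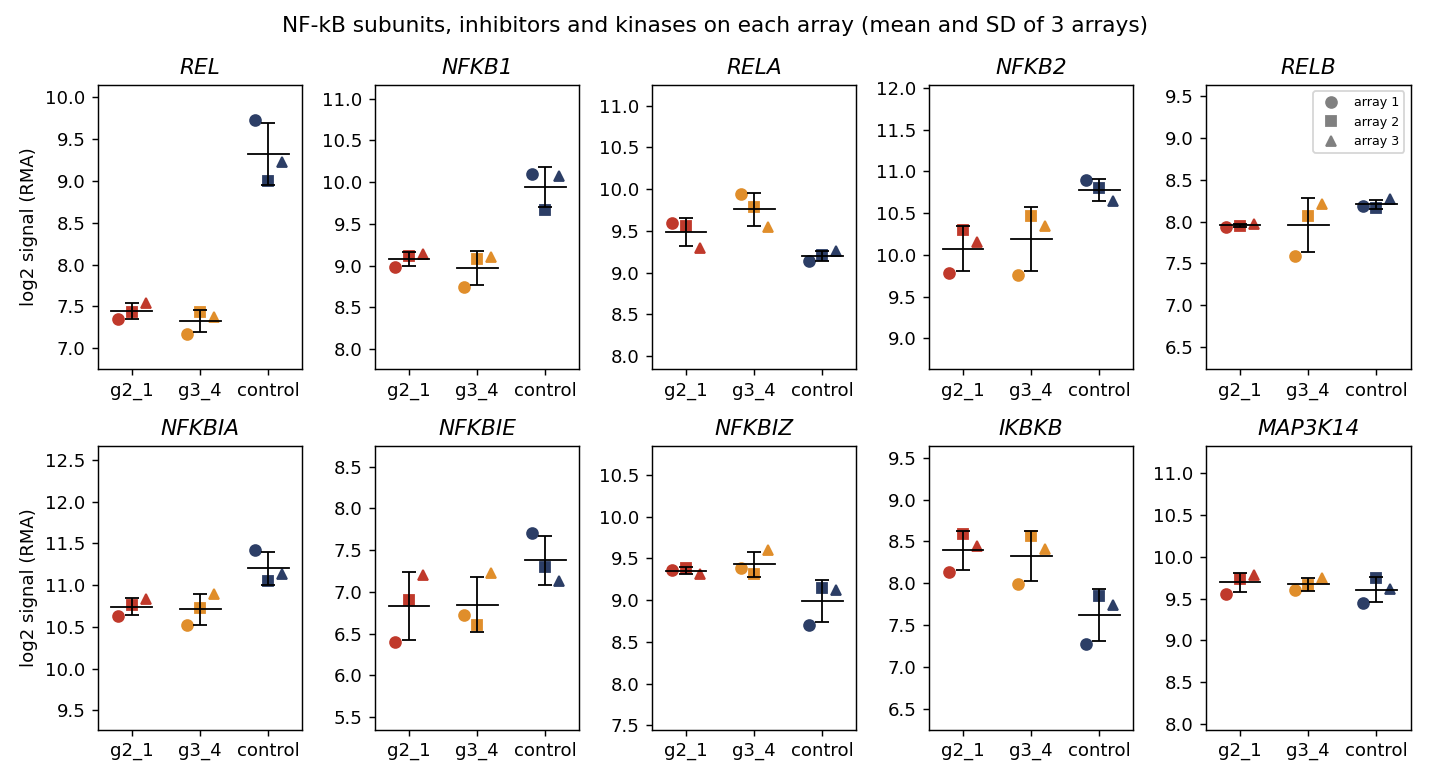
Log2 signal of each gene on each of the 9 arrays. Points are single arrays, with shape giving the array number, and bars are the mean and SD of 3 arrays in g2_1, g3_4 and control cells; every panel spans the same number of log2 units. REL stands at 7.17 to 7.54 in the clones and at 9.0 to 9.73 in control cells.

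REL, which encodes the subunit c-Rel with a strong activation domain, had the largest change of the group. Its log2 signals were 7.35, 7.43 and 7.54 in g2_1 and 7.17, 7.43 and 7.37 in g3_4, against 9.73, 9.0 and 9.23 in control cells. The knockout arrays lay close together and below all control arrays, and control array 1 stood highest. The means were 7.44 ± 0.10 in g2_1 and 7.32 ± 0.14 in g3_4, against 9.32 ± 0.37 in control cells (SD, n = 3 each). REL fell by 1.88 in g2_1 (SE 0.17, limma adjusted p = 2.49e-05) and fell by 1.997 in g3_4 (SE 0.17, adjusted p = 1.48e-05), a 3.68-fold and a 3.99-fold lower signal. Its place among all transcript clusters ordered from the largest fall was 279 with the clones averaged. The call held when any 1 array, or the 3 arrays of any 1 number, was left out, with log2 fold changes of -2.12 to -1.67 in the clones averaged. In a test with unequal variances the adjusted p was 0.185 in g2_1 and 0.168 in g3_4.

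Some of the genes beside REL on chromosome 2 fell too. Of its 20 nearest genes with a mean signal above the median of the table, 10 on each side, 8 fell in both clones and 0 rose, with a median log2 fold change of -0.36 in the clones averaged. BCL11A, which encodes a zinc-finger transcription factor, fell by 4.73 (SE 0.23), and PAPOLG, which encodes a poly(A) polymerase and lies between BCL11A and REL in that order, fell by 0.74 (SE 0.09). XPO1, which encodes a nuclear export receptor, had a log2 fold change of 0.26 (SE 0.11, adjusted p = 0.160 in limma) and was not called. These 3 neighbours were chosen after their values were seen. The log2 fold change of REL minus the median of its neighbours was -1.58, and 1 of the 20 was lower than REL. In bulk RNA, fewer cells of a type and less RNA per cell cannot be told apart. Whether the number of copies of the region differs between the clones and the control was not tested.

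**Figure D2:**
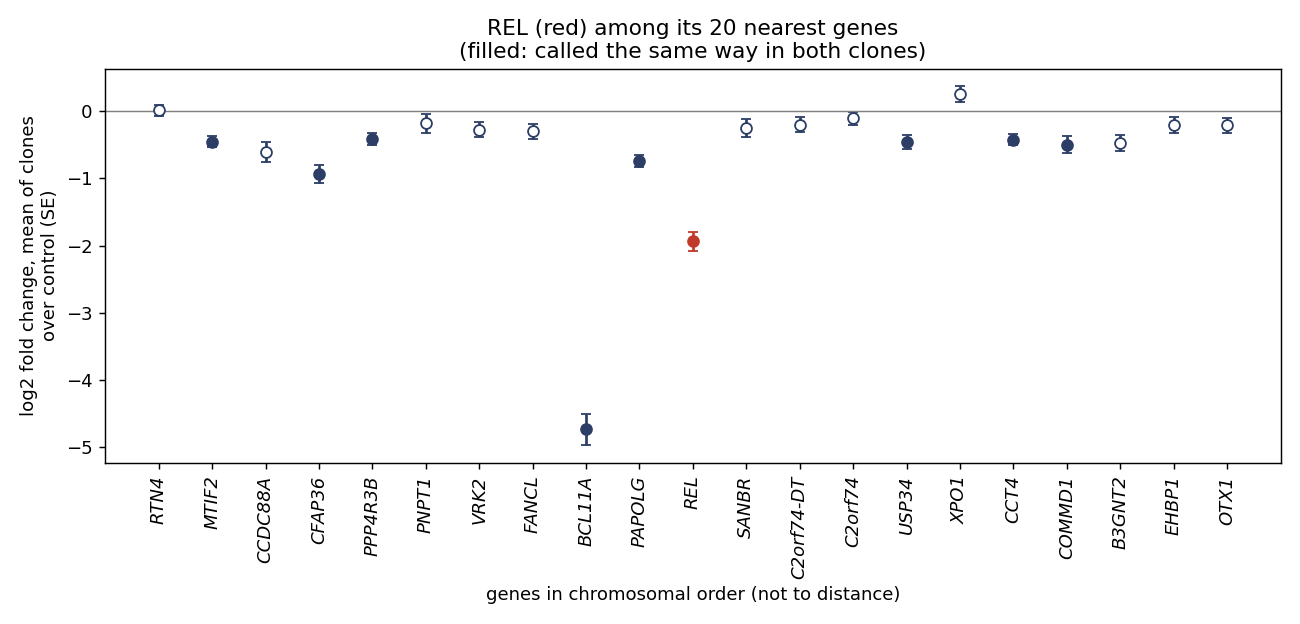
Log2 fold change of REL (red) and its 20 nearest measured genes above the median signal, as the mean of both clones over control, with SE. Genes stand in chromosomal order without regard to distance, and filled points were called the same way in both clones; 8 neighbours were, with BCL11A at -4.73 and REL at -1.94.

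NFKB1, which encodes a precursor that is cut to a DNA-binding subunit of the canonical pairs, also fell. Its log2 signals were 8.98, 9.12 and 9.14 in g2_1 and 8.74, 9.08 and 9.10 in g3_4, against 10.10, 9.67 and 10.07 in control cells. No knockout array reached the lowest control array. The means were 9.08 ± 0.09 in g2_1 and 8.97 ± 0.20 in g3_4, against 9.95 ± 0.24 in control cells (SD, n = 3 each). NFKB1 fell by 0.87 in g2_1 (SE 0.14, limma adjusted p = 0.00184) and by 0.97 in g3_4 (SE 0.14, adjusted p = 8.96e-04). The call held with every array or array number left out, at -1.10 to -0.76 in the clones averaged, and was lost with unequal variances (adjusted p = 0.216 in g2_1 and 0.170 in g3_4). Its neighbours on chromosome 4 had a median of -0.05 in g2_1 and -0.41 in g3_4, and 6 of 20 fell in both clones. With the clones averaged the change of NFKB1, at -0.92, was below that of all 20, but by little. The neighbour BDH2, chosen after its value was seen, was at -0.917 (SE 0.20) and fell in both clones.

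RELA, which encodes the main activating subunit of the canonical branch, went the other way. Its log2 signals were 9.60, 9.56 and 9.30 in g2_1 and 9.94, 9.79 and 9.55 in g3_4, against 9.14, 9.21 and 9.26 in control cells. All knockout arrays lay above all control arrays, by little on array 3 of g2_1. RELA rose by 0.56 in g3_4 (SE 0.12, limma adjusted p = 0.0117), and in g2_1 its log2 fold change was 0.28 (SE 0.12, adjusted p = 0.177). The clones averaged gave 0.42 (SE 0.11, adjusted p = 0.0190). The call in g3_4 was lost without g3_4 array 1 (0.47, adjusted p = 0.0508). Leaving out the arrays numbered 1 (0.44, adjusted p = 0.0664) or those numbered 2 (0.55, adjusted p = 0.170) ended it as well. The averaged value was called in 8 of the 12 fits with arrays left out, at 0.32 to 0.55. The neighbours of RELA on chromosome 11 had a median of 0.26 in the clones averaged, and 15 of 20 had a lower value than RELA. The 3 genes of the canonical subunits thus had log2 fold changes in the clones averaged of -1.94 for REL, -0.92 for NFKB1 and 0.42 for RELA.

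Of the subunit genes of the alternative branch, NFKB2 was called lower in g2_1 and in the clones averaged, and RELB was not called. NFKB2, whose product is processed into the DNA-binding partner of RELB, had log2 signals of 9.78, 10.30 and 10.15 in g2_1 and 9.76, 10.47 and 10.35 in g3_4, against 10.90, 10.80 and 10.64 in control cells. The arrays numbered 1 were the lowest of both clones and the highest of the control, and the groups did not overlap. NFKB2 fell by 0.70 in g2_1 (SE 0.19, limma adjusted p = 0.0304) and had a log2 fold change of -0.59 in g3_4 (SE 0.19, adjusted p = 0.0657). The call in g2_1 was lost without g2_1 array 1 (-0.56, adjusted p = 0.119) or array 3 (-0.74, adjusted p = 0.0695). The same held for leaving out control array 1 (-0.64, adjusted p = 0.0639) or 2 (-0.69, adjusted p = 0.0800), or the arrays numbered 2 (-0.81, adjusted p = 0.120) or 3 (-0.81, adjusted p = 0.127). With the clones averaged the log2 fold change was -0.65 (SE 0.16, adjusted p = 0.0187), below all 20 of its neighbours on chromosome 10, whose median was -0.03.

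RELB had log2 signals of 7.94, 7.95 and 7.97 in g2_1 and 7.59, 8.07 and 8.21 in g3_4, against 8.19, 8.16 and 8.27 in control cells. The arrays of g2_1 lay just below the control and those of g3_4 overlapped it. RELB was not called, with a log2 fold change of -0.25 in both clones (SE 0.14 each, limma adjusted p = 0.310 in g2_1 and 0.318 in g3_4). The 95% interval in the clones averaged ran from -0.52 to 0.02. Without g3_4 array 1, the lowest of its group, the log2 fold change in g3_4 was -0.07 (adjusted p = 0.785).

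NFKBIA encodes I-kappa-B alpha, the inhibitor that NF-kB itself induces and that holds canonical pairs in the cytoplasm. Its log2 signals were 10.63, 10.76 and 10.83 in g2_1 and 10.52, 10.73 and 10.89 in g3_4, against 11.42, 11.05 and 11.13 in control cells. The groups did not overlap, but the gap between the highest knockout and the lowest control array was narrow. NFKBIA fell by 0.46 in g2_1 (SE 0.13, limma adjusted p = 0.0385) and by 0.49 in g3_4 (SE 0.13, adjusted p = 0.0296), 1.38-fold and 1.40-fold. These calls were close to the threshold. When the median of every array was set to 0, log2 fold changes over the whole table shifted up by 0.11 at their median, and the change of NFKBIA was then -0.35 in g2_1 (adjusted p = 0.0810) and -0.38 in g3_4 (adjusted p = 0.0629). In the clones averaged it was -0.47 on the deposited scale (adjusted p = 0.0135) and -0.36 after centring (adjusted p = 0.0347), and the value was -0.29 without the arrays numbered 1 (adjusted p = 0.0767). The calls in both clones were also lost without control array 1, at -0.35 in g2_1 (adjusted p = 0.0909) and -0.38 in g3_4 (adjusted p = 0.0697). Of the 12 fits that left out 1 array or the 3 arrays of 1 number, NFKBIA was called in 3 in g2_1, in 6 in g3_4 and in 10 with the clones averaged.

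The other inhibitor genes differed in direction. NFKBIE encodes I-kappa-B epsilon, a further cytoplasmic inhibitor. It had log2 signals of 6.40, 6.90 and 7.20 in g2_1 and 6.72, 6.60 and 7.22 in g3_4, against 7.70, 7.30 and 7.13 in control cells. These ranges overlapped, and the log2 fold changes of -0.54 in g2_1 and -0.53 in g3_4 (SE 0.23 each, limma adjusted p = 0.156 and 0.169) were not called. With arrays left out they ranged from -0.85 to -0.17 in g2_1 and from -0.84 to -0.30 in g3_4, with no call. With the clones averaged NFKBIE was at -0.54 (SE 0.20, adjusted p = 0.0894), and ranged from -0.84 to -0.23 with arrays left out. That averaged value was called in 2 of the 12 fits, without g3_4 array 3 (-0.63, adjusted p = 0.0491) and without the arrays numbered 3 (-0.84, adjusted p = 0.0269). NFKBIZ encodes I-kappa-B zeta, a nuclear family member that works as a co-regulator of selected NF-kB targets rather than as a cytoplasmic anchor. It had log2 signals of 9.36, 9.39 and 9.31 in g2_1 and 9.38, 9.31 and 9.60 in g3_4, against 8.70, 9.15 and 9.12 in control cells. All knockout arrays were above the control arrays, of which array 1 was the lowest. NFKBIZ was called with the clones averaged, where it rose by 0.40 (SE 0.12, limma adjusted p = 0.0339), but in neither clone alone, at 0.36 in g2_1 (adjusted p = 0.104) and 0.44 in g3_4 (adjusted p = 0.0504). Without control array 1 the averaged value was 0.26 (adjusted p = 0.108), and it was called in 3 of the 12 fits with arrays left out. After centring on the median NFKBIZ was called in g2_1 (0.48, adjusted p = 0.0304) and in g3_4 (0.55, adjusted p = 0.0161).

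IKBKB, which encodes the kinase that phosphorylates the inhibitors, rose in both clones. Its log2 signals were 8.14, 8.59 and 8.45 in g2_1 and 7.99, 8.57 and 8.41 in g3_4, against 7.27, 7.85 and 7.74 in control cells. The array numbered 1 was the lowest in each of the 3 groups, as it was for MAP3K14 and for 10.1% of all transcript clusters, and even so no knockout array lay below a control array. IKBKB rose by 0.77 in g2_1 (SE 0.19, limma adjusted p = 0.0199) and by 0.70 in g3_4 (SE 0.19, adjusted p = 0.0313), 1.71-fold and 1.63-fold. The call in g3_4 was lost without g3_4 array 2 (0.58, adjusted p = 0.126), g3_4 array 3 (0.66, adjusted p = 0.105) or control array 1 (0.53, adjusted p = 0.0724). The call in g2_1 was lost without g2_1 array 2 (0.68, adjusted p = 0.0886) or array 3 (0.75, adjusted p = 0.0705). In both clones it was lost without the arrays numbered 2 (adjusted p = 0.114 in g2_1 and 0.155 in g3_4) or those numbered 3 (adjusted p = 0.145 in g2_1 and 0.193 in g3_4). Without the arrays numbered 1, whose RNA integrity number was 10 against 9.5 to 9.6 on the others, IKBKB rose by 0.73 in g2_1 (adjusted p = 0.00354) and by 0.70 in g3_4 (adjusted p = 0.00469). Of its 20 neighbours, 19 had a lower value than IKBKB in the clones averaged, and their median was 0.07.

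MAP3K14, which encodes the kinase at the head of the alternative branch, had log2 signals of 9.56, 9.74 and 9.78 in g2_1 and 9.60, 9.66 and 9.75 in g3_4, against 9.45, 9.75 and 9.61 in control cells. The 3 groups overlapped throughout. Its log2 fold change was 0.09 in g2_1 and 0.07 in g3_4 (SE 0.11 each, limma adjusted p = 0.693 and 0.780), and the 95% interval in the clones averaged ran from -0.13 to 0.29.

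**Figure D3:**
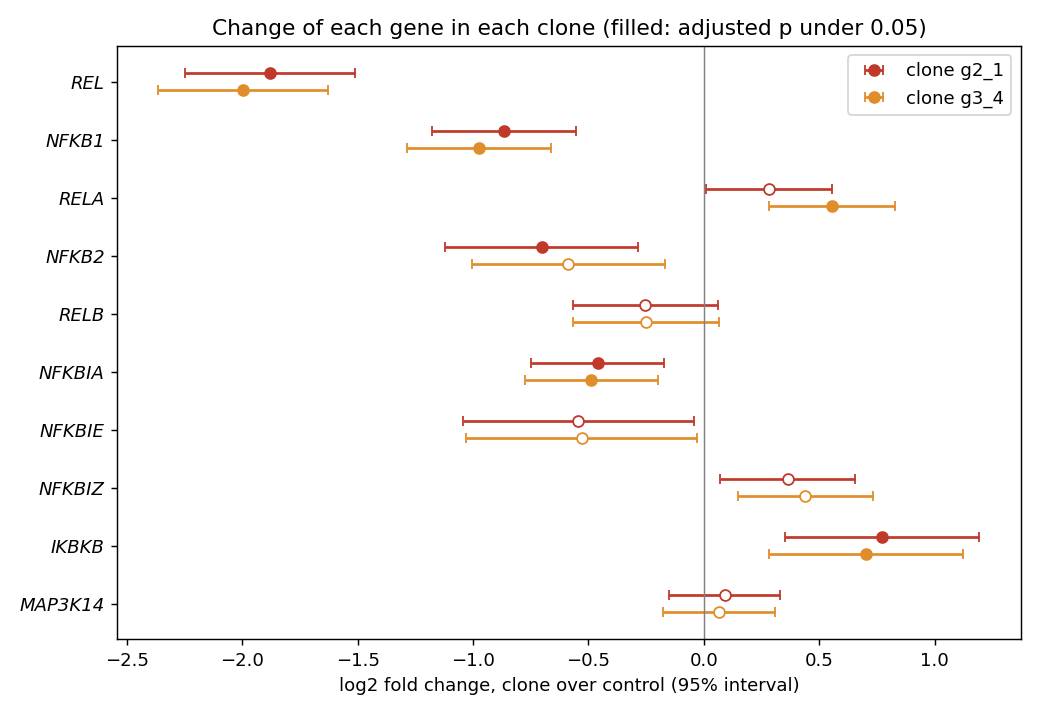
Log2 fold change of each gene in clone g2_1 and in clone g3_4 over control, with 95% intervals from limma; filled points have an adjusted p under 0.05. REL is lowest, at -1.88 and -1.997, IKBKB is highest, at 0.77 and 0.70, and the intervals of the clones overlap for each gene.

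The clones were also set against each other, for 10 genes in all. No gene was called between g2_1 and g3_4 in limma (0 of 10, against 0.0526% of all transcript clusters, 0.0191% higher and 0.0335% lower), with 1 at an unadjusted p under 0.05. That gene was RELA, with a difference of -0.27 for g2_1 minus g3_4 (SE 0.12, adjusted p = 0.997, limma) and a 95% interval just below 0. In a test with unequal variances 0 were called and 0 had an unadjusted p under 0.05. The array number pairs the clones, and with it as a block 0 of the 10 genes were called and 27 transcript clusters in all, against 11 without the block. The differences are bounded more closely for some genes than for others: the 95% interval was -0.22 to 0.26 for MAP3K14, -0.26 to 0.31 for NFKBIA and -0.25 to 0.48 for REL, but -0.54 to 0.30 for NFKB2 and -0.51 to 0.49 for NFKBIE.

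Of 25 measured adaptors, kinases, inhibitors and ubiquitin enzymes, 5 fell in both clones and 0 rose, against 6.97% and 4.48% of all transcript clusters. At an unadjusted p under 0.05 in both clones 8 fell and 3 rose in limma, and the unequal-variance test called 0 in either direction. After centring on the median 3 fell and 3 rose, and with 1 array or the arrays of 1 number left out 2 to 5 fell. MALT1, which encodes the protease of the complex that links antigen receptors to NF-kB, had log2 signals of 7.84, 8.04 and 7.99 in g2_1 and 7.74, 8.33 and 8.45 in g3_4, against 10.05, 9.50 and 9.54 in control cells. It fell by 1.74 in g2_1 (SE 0.19, limma adjusted p = 1.45e-04) and by 1.52 in g3_4 (SE 0.19, adjusted p = 3.75e-04). BTRC encodes the receptor of the ubiquitin ligase that takes up phosphorylated inhibitors, and its fall in the clones averaged was -0.47 (SE 0.12). COMMD1, which promotes the turnover of NF-kB subunits and lies among the neighbours of REL, was at -0.50 (SE 0.12). After centring neither BTRC (adjusted p = 0.0762 in g2_1 and 0.0897 in g3_4) nor COMMD1 (0.0910 and 0.0878) was called in limma in either clone alone. With the clones averaged both stayed called after centring, and each lost that call in 5 of 19 alternative fits. Of 20 alternative fits, BTRC lost its call in 11 in g2_1 and in 16 in g3_4. COMMD1 lost its call in 11 and 10 of them. RBCK1 and OTULIN, which build and remove linear ubiquitin chains, were the others that fell, with averaged values of -0.71 and -0.50 (SE 0.09 each). The median of the 25 in the clones averaged was -0.16.

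Among 5 measured receptors that feed the pathway, CD40 fell and TNFRSF8 rose in both clones. Of all transcript clusters 6.97% fell and 4.48% rose in both clones. CD40, which encodes a B cell receptor that signals through both branches, had log2 signals of 5.21, 4.91 and 4.88 in g2_1 and 4.76, 4.90 and 4.90 in g3_4, against 10.53, 9.22 and 9.36 in control cells. In both clones it lay a little above the first quartile of the table (4.64), and in control cells it was highest on array 1. TNFRSF8, which encodes CD30, had log2 signals of 12.01, 11.79 and 11.88 in g2_1 and 11.92, 11.72 and 11.79 in g3_4, against 11.25, 10.91 and 11.16 in control cells. It rose by 0.79 in g2_1 (SE 0.12, limma adjusted p = 9.69e-04) and by 0.70 in g3_4 (SE 0.12, adjusted p = 0.00202). LTBR, which encodes the receptor for lymphotoxin of the membrane-bound form, and TNFRSF1A, which encodes a receptor for TNF and secreted lymphotoxin, were not called, at 0.09 and 0.30 in the clones averaged (SE 0.13 and 0.11). TNFRSF14, which encodes a receptor for LIGHT and lymphotoxin alpha, had log2 signals of 7.38, 7.20 and 7.15 in g2_1 and 7.49, 7.28 and 7.47 in g3_4, against 7.83, 7.77 and 7.63 in control cells. All of its knockout arrays lay below the control arrays. It fell by 0.50 in g2_1 (SE 0.11, limma adjusted p = 0.00958), had a log2 fold change of -0.33 in g3_4 (SE 0.11, adjusted p = 0.0677), and fell by 0.42 in the clones averaged (SE 0.09, adjusted p = 0.00960). With array weights 2 receptors fell in both clones, and in the unequal-variance test 0 fell and 0 rose.

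Of 29 measured target genes, 12 fell in both clones and 1 rose, against 6.97% lower and 4.48% higher of all transcript clusters, with a median of -0.34 in the clones averaged against 0.04 for all transcript clusters. The list was drawn up with earlier results of these data known, so its direction is no independent support. The cytokine gene IL6 had log2 signals of 4.15, 4.11 and 4.33 in g2_1 and 4.05, 3.94 and 3.88 in g3_4, against 9.59, 9.73 and 9.87 in control cells. Its knockout arrays lay below the first quartile of the table, where the array measures little, so the fall may be larger than the value given. The adhesion receptor gene CD44 stood at 4.91 to 5.52 on knockout arrays, against 10.33 to 10.76 in control cells, and the costimulatory ligand gene CD80 at 5.51 to 6.01 on knockout and 9.02 to 9.81 on control arrays. CXCL10 and CCL3, both chemokine genes, completed the 5 largest falls, at -5.36 (SE 0.30) and -3.48 (SE 0.17) in the clones averaged. The means of CXCL10 were 4.53 in g2_1 and 4.61 in g3_4, below the first quartile as for IL6, so its fall may also be larger than the value given. The dendritic cell and B cell activation marker gene CD83 was the 1 that rose in both clones, by 0.56 in g2_1 (SE 0.13, limma adjusted p = 0.0138) and by 0.52 in g3_4 (SE 0.13, adjusted p = 0.0201). CD83 was not called without control array 2 (0.50, limma adjusted p = 0.0534 in g2_1 and 0.46, adjusted p = 0.0718 in g3_4). Without control array 3 it was not called in g3_4 (0.475, adjusted p = 0.0597). In both of these fits another target rose in both clones, so the count of risen targets stayed at 1. That count was 0 without g2_1 array 2, g2_1 array 3, g3_4 array 3, or the arrays numbered 2 or 3. It was 2 without g3_4 array 1 or the arrays numbered 1, and 4 after centring on the median. The other 16 did not pass in both clones. In the unequal-variance test 1 target fell and 0 rose in both clones. With the clones averaged 15 targets fell and 4 rose in limma, against 9.83% lower and 8.13% higher of all transcript clusters.

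**Figure D4:**
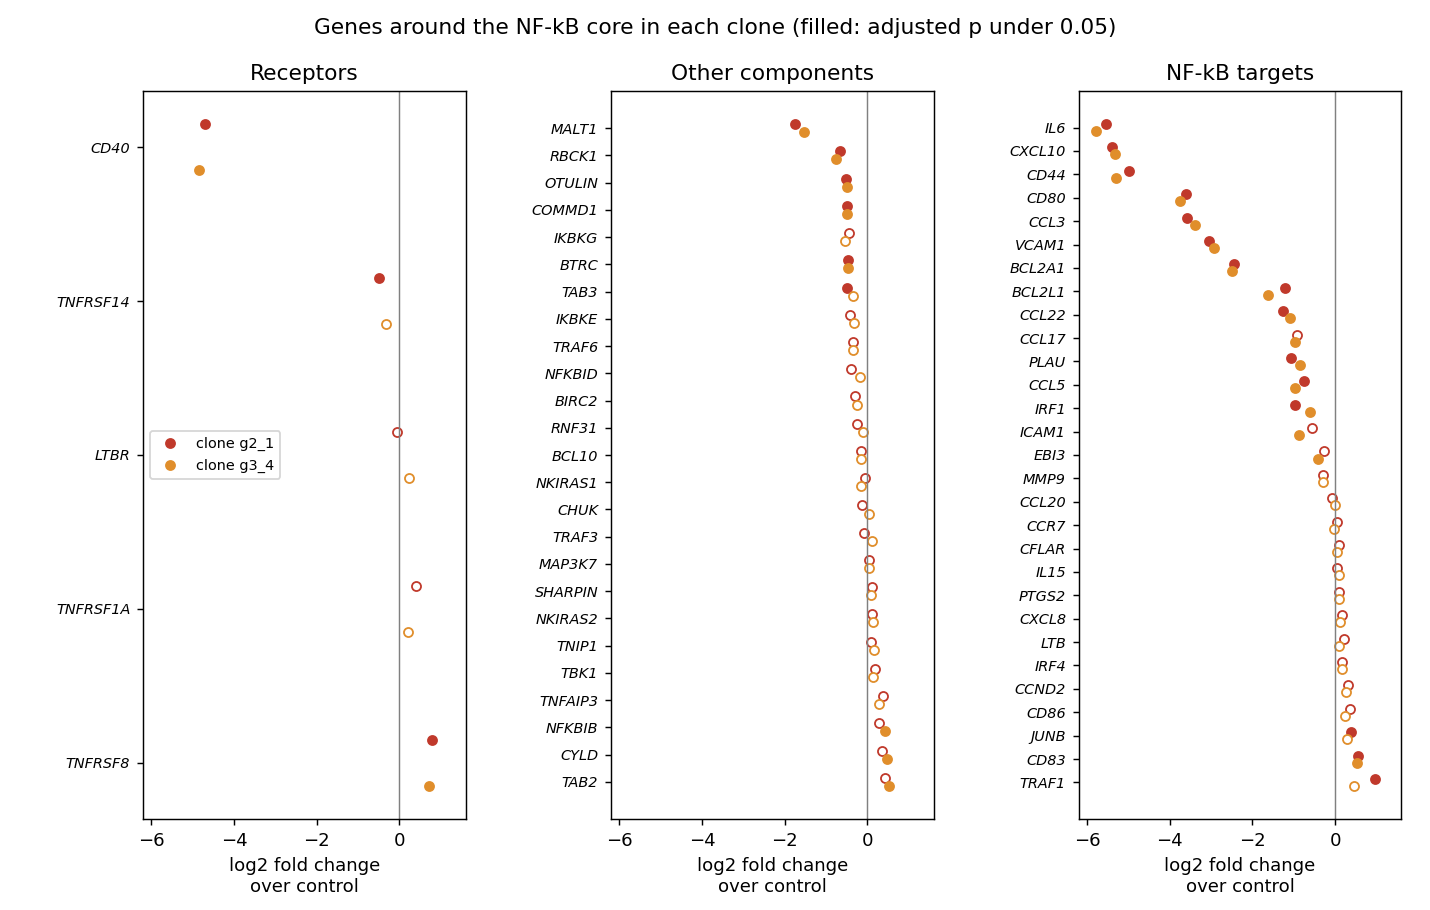
Log2 fold change over control in clone g2_1 and clone g3_4 for the 5 receptors, 25 other components and 29 targets that were measured; filled points have an adjusted p under 0.05. The falls of targets reach from -5.77 for IL6 in g3_4, while most components lie within 0.5 of 0.

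Leaving arrays out changed the calls of some of the 10 genes and not those of others. With the clones averaged, REL, NFKB1 and no other of the 10 genes were called in all 12 fits that left out 1 array or the 3 arrays of 1 number. IKBKB was called in all but 2 of them, and lost the call without the arrays numbered 2 (0.74, adjusted p = 0.0709 in limma) or those numbered 3 (0.76, adjusted p = 0.0952). Control array 1 held the highest REL, NFKB1, NFKB2, NFKBIA and NFKBIE signals and the lowest NFKBIZ, RELA, IKBKB and MAP3K14 signals of the control, and without it 4 of the 10 genes were called in the clones averaged. That count was also 4 without the arrays numbered 1, and it was 2 without the arrays numbered 2.

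**Figure D5:**
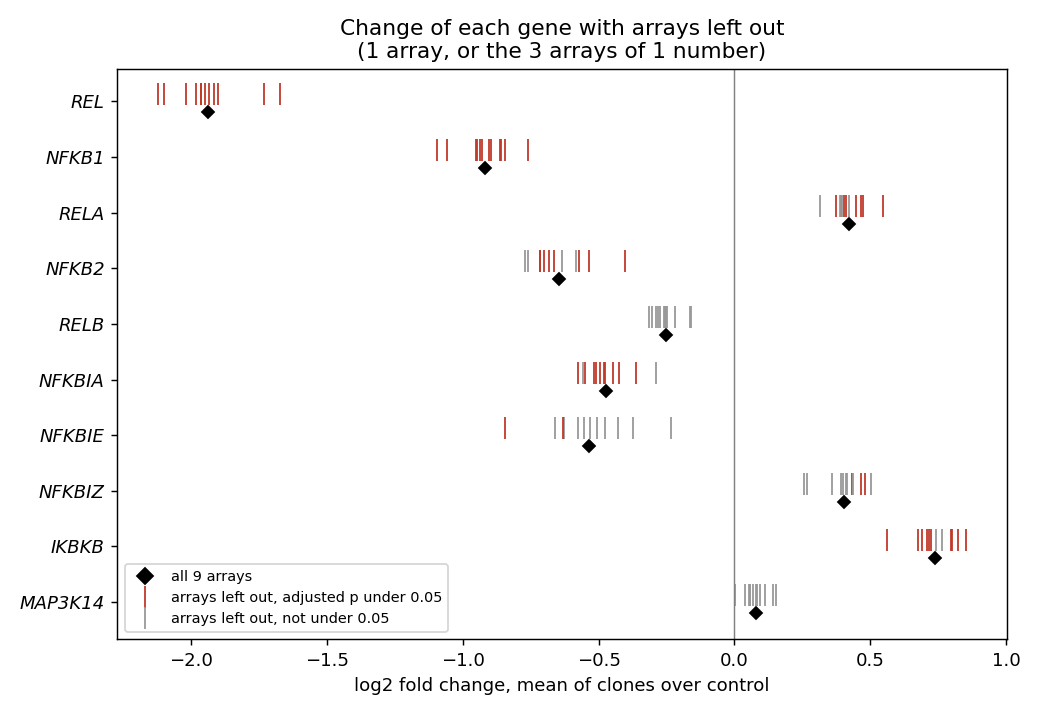
Log2 fold change of each gene in the clones averaged over control with all 9 arrays (diamonds) and with arrays left out (ticks); red ticks have an adjusted p under 0.05. The ticks of REL lie between -2.12 and -1.67 and those of NFKB1 between -1.10 and -0.76, and all of them are red.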

How the data were processed

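RNA of 9 L-1236 samples was measured on Clariom S arrays. Per the submitters' processing notes, the log2 signals that the authors deposited for each transcript cluster came from RMA and Transcriptome Analysis Console 4.0. The genome build is not given in the sources used here. Of the rows, 555 with unmapped IDs were left out and 20893 were tested in limma 3.58.1 under R 4.3.3, with 1 linear model over the 3 groups, empirical Bayes and Benjamini-Hochberg adjustment over all rows. The method was tested on simulated data whose noise was independent between arrays, unlike the shared deviations of same-numbered arrays given below. For arrays, their number limits the precision.

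Deviations from group means of same-numbered arrays correlated at 0.435, 0.191 and 0.310 between the clones, so the numbers pair the clones. Between g2_1 and control they correlated at 0.285, 0.0426 and 0.183, and between g3_4 and control at 0.298, 0.0565 and 0.257, so pairing with the control was not assumed.

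The 10 genes and the lists were chosen with earlier results of these data known. Named beside them are LTA and, per list, up to 5 largest rises and falls among genes called the same way in both clones, with the 3 genes nearest in profile for 4 of the 10. Receptors and markers outside this rule were chosen after their values were seen. Of the listed genes, 25 of 31 components, 5 of 7 receptors and 29 of 32 targets were found by symbol.

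The alternatives were a replicate block, centring, a filter on low signals, a trended robust variance, array weights, only the groups compared, unequal variances, unmapped rows kept, and arrays left out.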

Additional observations from a re-analysis of the deposited data

How the results depend on the processing

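With 3 arrays a group, calls of RELA, NFKB2, NFKBIA, NFKBIE, NFKBIZ and IKBKB changed when single arrays were left out, while those of REL and NFKB1 did not. Of the values of the 10 genes under the alternatives, 173 of 200 in g2_1 and 170 of 200 in g3_4 kept direction and call, as did 159 of 190 in the clones averaged; 26, 22 and 29 lost the call. With unequal variances 0 of the 10 genes were called in g2_1, g3_4, the clones averaged or both clones, and 31, 65, 462 and 0 transcript clusters were called in g2_1, g3_4, the clones averaged and between the clones. With only the groups compared in the fit, 3 of the 10 genes were called in g3_4, 2 in both clones, and 32 transcript clusters between the clones. Between the clones array weights gave 50 transcript clusters and the replicate block 27. With the replicate block 5 of the 10 genes were called in g2_1, 7 in g3_4, 7 in the clones averaged and 5 in both clones. NFKB2 in g3_4 had an adjusted p of 0.0331 in limma with the replicate block, and NFKBIZ 0.0385; the block changed no other call of the 10 genes. With it 2 receptors fell in both clones, against 1 without it. The planned use of other rows of a gene was not run, since each of the 10 had 1 row.

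With arrays left out, 2 to 5 of the 10 genes were called in g2_1, 2 to 6 in g3_4, 2 to 7 in the clones averaged, 2 to 4 in both clones and 0 to 0 between the clones. The transcript clusters called were 1049 to 3118 in g2_1, 1103 to 3148 in g3_4, 1616 to 3729 in the clones averaged and 2 to 45 between the clones. The lowest counts against control came without the arrays numbered 2, and the 45 without control array 1.

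Signs turned only in small values that were not called. MAP3K14 in g3_4 over control was -0.01 to 0.15 with arrays left out. The differences of g2_1 minus g3_4 ranged, with arrays left out, from -0.01 to 0.17 for NFKB1, -0.33 to 0.0317 for NFKB2, -0.19 to 0.12 for RELB, -0.07 to 0.12 for NFKBIA, -0.20 to 0.20 for NFKBIE, -0.16 to 0.03 for NFKBIZ, -0.10 to 0.20 for IKBKB and -0.02 to 0.09 for MAP3K14. For other genes they ranged from -0.10 to 0.0283 for OTULIN, -0.11 to 0.12 for COMMD1, -0.14 to 0.0483 for BTRC, -0.005 to 0.23 for CD40, -0.26 to 0.11 for CXCL10, -0.0067 to 0.24 for CD80 and -0.03 to 0.14 for CD83. With array weights NFKBIE was at 0.0519. The cause was not tested.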

Other observations

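The genes nearest in profile to the 4 genes called in both clones were found by the root mean square distance between log2 profiles over the 9 arrays, after the mean of each profile was taken off. REL was nearest to LGALS9B (0.128 log2 units), TRIM10 (0.134) and ZBTB40 (0.142). NFKB1 was nearest to ZBTB38 (0.0822), ZHX1 (0.0876) and ZNF529 (0.104). IKBKB was nearest to FAM117B (0.103), TSKU (0.110) and PAWR (0.120). NFKBIA was nearest to P4HA2 (0.0488), BTRC (0.0495) and NSMCE2 (0.0570). BTRC is itself in the pathway, and its log2 fold change in the clones averaged was -0.47, against -0.47 for NFKBIA. The distances follow the size of each gene's change and the 9 arrays are shared by all profiles, so they are given as a description.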
